A study of Mus musculus with 36 samples.

Results

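A set of 10 genes of iron transport, storage and sensing were followed through the brains of mice treated chronically with diazepam (DZP). They were chosen by name for their place in the iron pathway: *Tfrc*, *Trf*, *Fth1*, *Ftl1*, *Slc40a1*, *Hamp*, *Cp*, *Aco1*, *Ireb2* and *Slc11a2*. All 10 were measured, each by 1 transcript cluster, among the 30176 gene symbols that had a cluster of their own and the 65956 clusters tested. Male C57BL/6 mice of about 8 weeks received DZP, a benzodiazepine, or the lipid emulsion INTRALIPID it was dissolved in (Ctrl), by intraperitoneal injection 2 times per day for 10 days. The dose was 5 mg/kg by the study's methods, where the labels give 5 mg/ml. No mouse carried a transgene or deletion, and the comparison therefore sets drug plus vehicle against vehicle. By the study's methods, mice of both groups were also anesthetised with medetomidine, midazolam and butorphanol before perfusion. Total RNA of the cerebral cortex, hippocampus and amygdala was hybridised to whole-transcriptome arrays, with 3 arrays for each treatment and region, read at the gene level (18 arrays) and again at the level of exons and exon junctions. The study describes 3 mice for each treatment, with the regions punched from brain slices, while the labels tie no array to a mouse. Arrays of different regions can therefore share mice, and the tests between regions, which took the arrays as independent, did not account for that. The p-values measure the spread between these arrays.

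Iron reaches brain cells as ferric iron bound to transferrin, which transferrin receptor takes into endosomes, where the divalent metal transporter moves the reduced iron into the cytosol. Cytosolic iron that is not used is stored in ferritin, a shell of heavy and light chains, and leaves the cell through ferroportin, helped by the ferroxidase ceruloplasmin and blocked by the hormone hepcidin. The iron regulatory proteins sense cytosolic iron and bind hairpins in the mRNAs of ferritin, ferroportin and transferrin receptor, so that part of this control does not show in mRNA levels. In the adult brain, transferrin mRNA is made mainly by oligodendrocytes, the cells that form myelin, and by the choroid plexus, and transferrin receptor is prominent on capillary endothelium.

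None of the 10 genes passed the test between DZP and Ctrl in any region, whereas 3 of them differed between regions of Ctrl brains. In hippocampus against cortex 1 of 10 passed, where 15% of all clusters did, and in amygdala against cortex 1, against 15.5%. In amygdala against hippocampus 1 was higher and 1 lower, against 10.3%, so these counts were not far from the shares of all clusters. All values below are signal intensities on the log2 scale, on which 1 unit is a doubling of signal, and a gene was called when its limma p-value, adjusted over all 65956 clusters by Benjamini and Hochberg, was below 0.05. Between DZP and Ctrl, 0 of 10 genes were called in the cortex, where 0.0364% of all clusters were, 0 in the hippocampus against 0.0728%, and 0 in the amygdala against 0%. Adjusted p-values of the 10 genes ran from 0.377 to 0.994 in the cortex, from 0.227 to 0.876 in the hippocampus and from 0.518 to 0.991 in the amygdala. At an unadjusted p below 0.05 the counts were 2, 2 and 1 genes, where 7.83%, 11.2% and 9.4% of clusters lay. The study's own criteria, an unadjusted p of the methods' test below 0.05 with a fold change of at least 1.5, were met by 0 of the 10 genes in every region, and 2, 1 and 1 genes had a p of that test below 0.05. The median difference of the 10 genes was 0.01 in the cortex, 0.05 in the hippocampus and 0.02 in the amygdala, beside -0.004, -0.007 and 0.028 over all clusters. The 95% intervals reached 0.13 to 0.36 to either side of the difference. Their outermost limits were 0.83 for *Cp* and -0.54 for *Hamp*, both in hippocampus, which leaves room for changes up to that size.

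**Figure D1:**
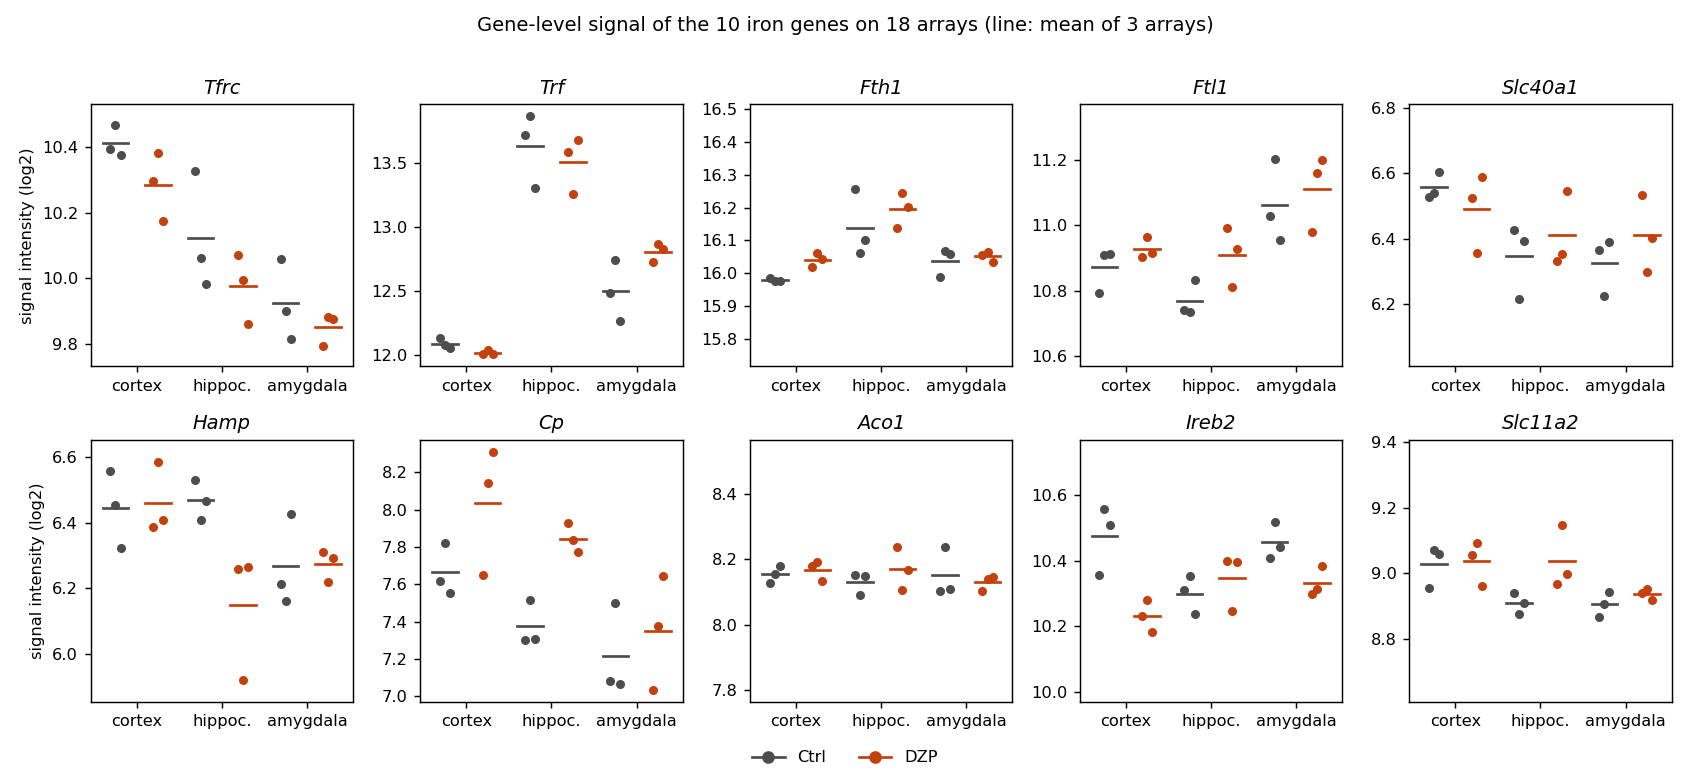
Signal intensity (log2, vertical axes of unequal range) of each of the 10 genes on the 18 arrays by region, Ctrl in grey and DZP in orange, points being arrays and lines the mean of 3. *Trf* stands between 13.25 and 13.86 in the hippocampus and between 12.00 and 12.13 in the cortex, while *Aco1* stays between 8.09 and 8.24 throughout.

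The arrays were alike in scale, with medians of 5.86 to 6.03 and correlations of 0.9932 to 0.9965 within groups. Of the region markers, all 5 measured for hippocampus were called higher in Ctrl hippocampus than in cortex. All 6 for amygdala were called higher in Ctrl amygdala than in cortex. Of 5 for cortex, 4 were called lower and 1 higher in Ctrl hippocampus than in cortex. In Ctrl amygdala 4 of these 5 were called lower and 0 higher than in cortex. Negative-control probe sets averaged 6.71 to 6.80, above the array medians, so that this level is no floor, but *Slc40a1* and *Hamp* were below it on all 18 arrays and the other 8 genes above it. Summed signal of 7 choroid plexus and ependyma markers was high on 5 of the 18 arrays, namely Ctrl hippocampus 2 (16.45) and 3 (13.07), DZP hippocampus 1 (15.50) and 2 (15.73) and Ctrl amygdala 3 (16.45), and 8.68 to 9.50 on the others; of these markers *Folr1*, *Aqp1* and *Otx2* were below the negative-control mean on every array. In the amygdala, all 6 striatal markers had higher means and all 6 amygdala markers lower means in DZP than in Ctrl (median differences 1.10 and -0.39, none called). The part of these markers in the amygdala comparisons was not tested.

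*Trf*, transferrin, the carrier that binds ferric iron in plasma and interstitial fluid, varied most among the 10 genes. In the cortex its Ctrl arrays read 12.13, 12.07 and 12.05 and its DZP arrays 12.00, 12.03 and 12.01. In the hippocampus they read 13.72, 13.86 and 13.30 in Ctrl and 13.58, 13.25 and 13.68 in DZP. In the amygdala they read 12.49, 12.74 and 12.26 in Ctrl and 12.72, 12.87 and 12.82 in DZP. Every hippocampal array was above every amygdala array, and every amygdala array above every cortical one. In Ctrl brains *Trf* was 2.92-fold higher in hippocampus than in cortex (log2 difference 1.54, 95% interval 1.25 to 1.84, adjusted p = 7.47e-07) and 2.19-fold lower in amygdala than in hippocampus (-1.13, -1.43 to -0.84, adjusted p = 3.44e-05). The amygdala exceeded the cortex by 0.41 (0.11 to 0.71) with an adjusted p of 0.0604. Over 14 alternative runs the adjusted p went from 0.0242, with Ctrl amygdala array 3 left out, to 0.232, and the difference from 0.29 to 0.53. Between treatments the differences were -0.07 in cortex (-0.37 to 0.23), -0.12 in hippocampus (-0.42 to 0.17) and 0.31 in amygdala (0.01 to 0.61), with adjusted p-values of 0.964, 0.811 and 0.518 in limma. The amygdala difference had an unadjusted limma p of 0.043.

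Oligodendrocyte markers shared the regional order of *Trf*. All 10 measured markers of 11 listed were called higher in Ctrl hippocampus than in Ctrl cortex, by 0.72 for *Cnp* to 1.84 for *Mobp*, and all 10 were called lower in amygdala than in hippocampus; none of the 10 was below the negative-control mean. Their summed signal ranged from 13.71 to 13.81 in Ctrl cortex, from 13.63 to 14.04 in DZP cortex, from 15 to 15.39 in Ctrl hippocampus, from 15.16 to 15.42 in DZP hippocampus, from 13.72 to 14.70 in Ctrl amygdala and from 14.48 to 14.98 in DZP amygdala. In the amygdala all 10 marker means were higher in DZP than in Ctrl (median 0.43, none called), the same direction as *Trf*. In cortex and hippocampus 6 of the 10 marker means were higher with DZP, and the mean sums were 13.75 in Ctrl and 13.88 in DZP cortex and 15.22 in Ctrl and 15.27 in DZP hippocampus, whereas the *Trf* means were lower with DZP in both. Their part in the *Trf* values was not tested, and in whole tissue more cells of a type and more RNA per cell cannot be told apart. By correlation over the 18 arrays, which share 3 regions, the 3 genes most like *Trf* among 19049 named coding genes were *Myrf* (r = 0.970), *Arhgap12* (0.969) and *Ttyh2* (0.964). Choroid plexus sums differed widely between hippocampal arrays, at 9.22, 16.45 and 13.07 in Ctrl and 15.50, 15.73 and 9.19 in DZP, where *Trf* read 13.72, 13.86 and 13.30 in Ctrl and 13.58, 13.25 and 13.68 in DZP in the same order.

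**Figure D2:**
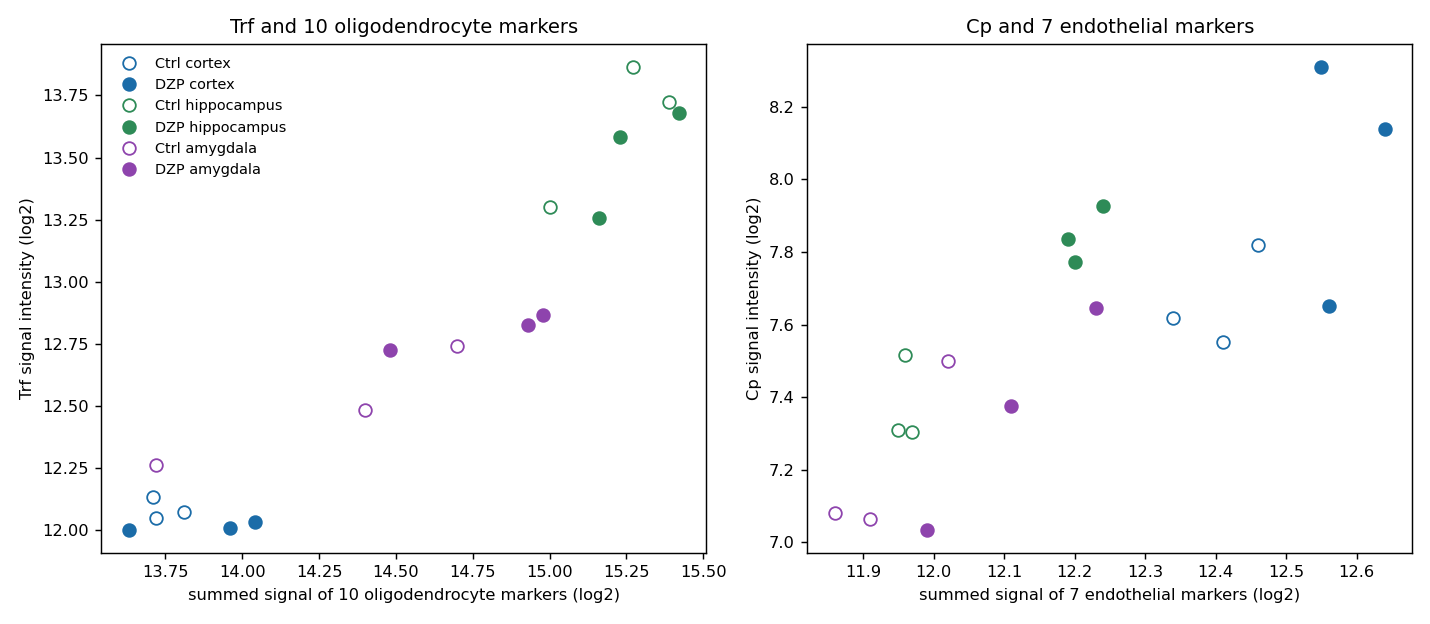
Signal intensity (log2) of *Trf* against the summed signal of 10 oligodendrocyte markers, and of *Cp* against that of 7 endothelial markers, each point 1 of 18 arrays, coloured by region, open for Ctrl and filled for DZP. Hippocampal arrays lie at the upper right for *Trf* (sums of 15 to 15.42), and for *Cp* the DZP arrays of cortex and hippocampus lie to the right of the Ctrl arrays of the same region.

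Most *Trf* probe sets were higher in hippocampus than in either other region. Of 52 *Trf* probe sets, 40 were called higher and 0 lower in Ctrl hippocampus than in cortex, with a median difference of 1.55, where 9.03% of all 719071 probe sets were called (4.07% higher and 4.96% lower). Of the same 52, 38 were called lower in amygdala than in hippocampus (background 7.09%, 3.28% lower and 3.81% higher) and 3 higher in amygdala than in cortex, a share near the background (10.6%, 5.13% higher and 5.44% lower), although 42 of 52 had the higher mean in amygdala. Relative to the gene-level value of the same array, 1 *Trf* probe set was called higher and 7 lower in hippocampus than in cortex, where 2.78% of 529518 probe sets were called. The brightest of them was among the 7: it read 18.10 to 18.16 in Ctrl cortex and 18.24 to 18.53 in Ctrl hippocampus, a difference of 0.24 against 1.54 for the gene. A junction probe set at 12.72 in Ctrl cortex and 12.69 in Ctrl hippocampus was another. Of the 7, 3 had means of 3.19, 5.77 and 6.61, below the negative-control mean, and a probe set without signal reads lower relative to a gene that is higher. Whether the brightest, with a mean of 18.23 where the gene-level scale ended at 19.93, was held back by the top of the scale was not tested. Between DZP and Ctrl no *Trf* probe set was called in any region, and in the amygdala 42 of 52 had the higher mean in DZP (median 0.27). In the hippocampus 39 of 52 had the lower mean in DZP (median -0.17), and in the cortex 31 of 52 (median -0.045).

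*Tfrc*, transferrin receptor, which takes up iron-loaded transferrin, ran in another regional order. Its Ctrl arrays read 10.39, 10.47 and 10.38 in cortex, 10.33, 10.06 and 9.98 in hippocampus and 10.06, 9.90 and 9.81 in amygdala. Its DZP arrays read 10.30, 10.38 and 10.18 in cortex, 10.07, 10.00 and 9.86 in hippocampus and 9.79, 9.88 and 9.88 in amygdala. The Ctrl cortex arrays lay above all Ctrl arrays of the other regions, and hippocampus and amygdala overlapped. *Tfrc* was 1.4-fold lower in Ctrl amygdala than in cortex (log2 difference -0.49, 95% interval -0.69 to -0.29, adjusted p = 0.00157). The hippocampus was lower than the cortex by a difference of -0.29 (-0.49 to -0.09) that just missed the threshold (adjusted p = 0.0508), and the amygdala differed from the hippocampus by -0.20 (-0.40 to 0.00, adjusted p = 0.235). DZP means were lower in all 3 regions, by -0.13, -0.15 and -0.07, with intervals that spanned 0 and adjusted p-values of 0.817, 0.606 and 0.842. At the exon level 15 of 47 *Tfrc* probe sets were called lower in amygdala than in cortex and 0 higher (background 5.44% and 5.13%). For hippocampus against cortex 5 were lower and 1 higher (background 4.96% and 4.07%).

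Endothelial markers, among other lists, were highest in cortex, as was *Tfrc*. Of 7 endothelial markers, 4 were called lower in Ctrl hippocampus and 5 in Ctrl amygdala than in Ctrl cortex, with none called higher and none below the negative-control mean. Their summed signal was 12.34 to 12.46 in Ctrl cortex, 11.95 to 11.97 in Ctrl hippocampus and 11.86 to 12.02 in Ctrl amygdala, and their part in the *Tfrc* values was not tested. Neuronal markers ran the same way, with 5 of 6 called lower in Ctrl hippocampus than in cortex, 4 lower and 1 higher in Ctrl amygdala, and mean sums of 19.41 in cortex, 19.11 in hippocampus and 18.98 in amygdala. The border macrophage sums were 8.14, 7.89 and 7.83, with 4 of the 5 markers below the negative-control mean on every array. With DZP the endothelial sum stood higher, at 12.55 to 12.64 in cortex and 12.19 to 12.24 in hippocampus, while the *Tfrc* means were lower in both. The genes most like *Tfrc* over the 18 arrays were *Gpcpd1* (r = 0.948), *Abcb1b* (0.942) and *Pcdhb19* (0.931).

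The start of *Tfrc* is shown because hypoxia-inducible factors are known to act on this gene, as iron lack and low oxygen both stabilise them. The stretch holds the 250 bases before the downstream of 2 RefSeq starts, on the plus strand of GRCm38.p6, with the core motif ACGTG in capitals.
Tfrc, chr16:32608872-32609121: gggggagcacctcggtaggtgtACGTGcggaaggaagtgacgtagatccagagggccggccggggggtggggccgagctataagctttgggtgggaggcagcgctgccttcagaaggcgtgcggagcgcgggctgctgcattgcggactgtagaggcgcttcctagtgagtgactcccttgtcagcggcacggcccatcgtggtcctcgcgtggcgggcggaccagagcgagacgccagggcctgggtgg
Searched on both strands, ACGTG was found in 16.6% of 32851 such windows and in 1 of 10 windows of the iron genes. The match says nothing about binding.

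*Slc11a2*, the divalent metal transporter that carries ferrous iron out of the endosome, was nearly level. It ranged from 8.87 to 9.15 over all 18 arrays. In the hippocampus the Ctrl arrays read 8.940, 8.876 and 8.909 and the DZP arrays 8.969, 9.148 and 8.996, so the groups did not overlap, with a difference of 0.13 (-0.01 to 0.27, adjusted p = 0.487). The differences in cortex and amygdala were 0.01 (-0.13 to 0.15) and 0.03 (-0.11 to 0.17). No region contrast was called for the gene. Of its 53 probe sets, 2 were called lower in hippocampus and 1 in amygdala than in cortex, shares below the background (4.96% and 5.44%).

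Groups of arrays that did not overlap between treatments were counted for all 10 genes. In the cortex 3 of 10 genes did not overlap, *Fth1* higher and *Trf* and *Ireb2* lower with DZP, where 14.6% of all clusters did not (7.22% higher and 7.34% lower). In the hippocampus 3 of 10 did not overlap, *Cp* and *Slc11a2* higher and *Hamp* lower, against 16.1% (6.45% higher and 9.69% lower). In the amygdala *Ireb2* alone did not overlap, against 13.1% (8.16% higher and 4.91% lower).

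**Figure D3:**
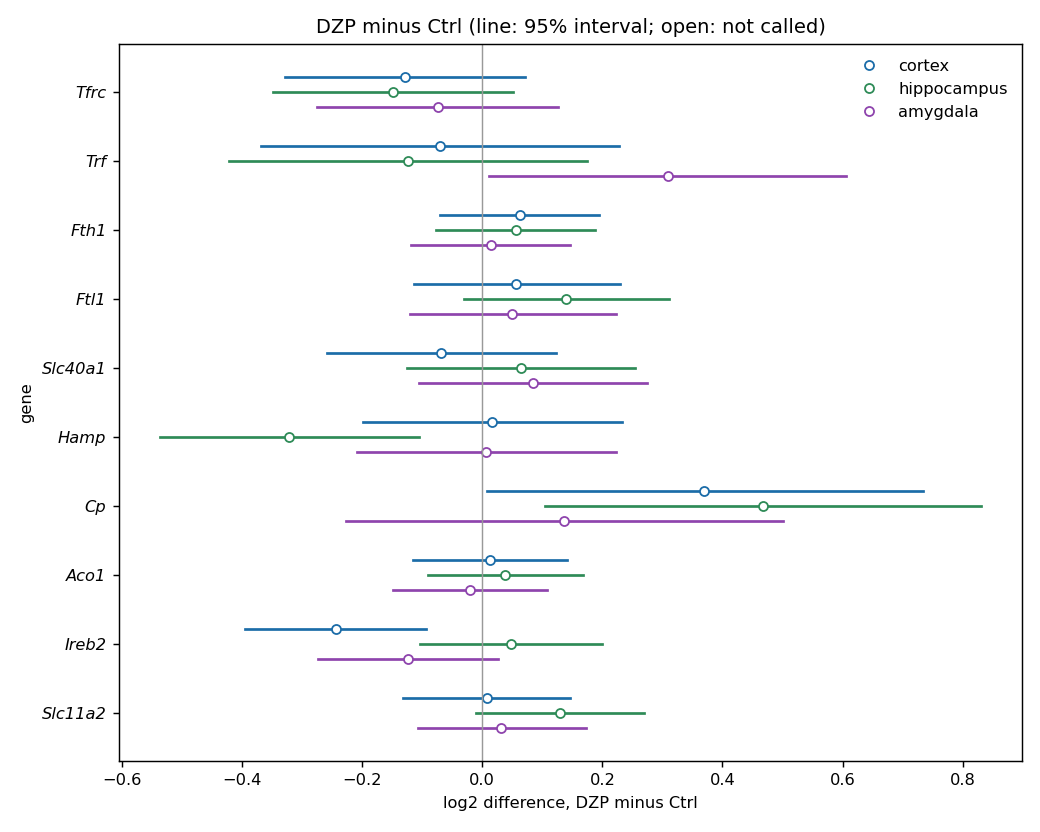
Log2 difference, DZP minus Ctrl, of the 10 genes in each region, with points for the limma estimate from 3 arrays against 3 and lines for the 95% interval. No point is filled because no gene was called, and the largest estimates are those of *Cp* in hippocampus (0.47) and cortex (0.37) and of *Hamp* in hippocampus (-0.32).

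The storage genes showed small differences between treatments at the gene level. *Fth1* encodes the ferritin heavy chain, which oxidises the iron that enters the shell, and *Ftl1* the light chain, which helps form its mineral core. *Fth1* read 15.98, 15.98 and 15.97 in Ctrl cortex, 16.26, 16.06 and 16.10 in Ctrl hippocampus and 15.99, 16.07 and 16.06 in Ctrl amygdala. With DZP it read 16.02, 16.06 and 16.04 in cortex, 16.14, 16.24 and 16.20 in hippocampus and 16.06, 16.06 and 16.03 in amygdala. The differences between treatments were 0.06, 0.06 and 0.01, and the 95% intervals of all 3 lay between -0.12 and 0.20. The *Fth1* probe sets were among the bright ones, with a median of 18.09 and a highest mean of 19.76 where the gene-level scale ended at 19.93, and whether the top of the scale narrowed these differences was not tested. Hippocampus exceeded cortex in Ctrl by 0.16 (0.03 to 0.29, adjusted p = 0.104). At the exon level 5 of 11 *Fth1* probe sets were called higher in hippocampus than in cortex (background 4.07%). In amygdala against hippocampus 2 were called lower (background 3.28%).

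*Ftl1* was the third gene to differ between regions. Its Ctrl arrays read 10.79, 10.91 and 10.91 in cortex, 10.74, 10.74 and 10.83 in hippocampus and 11.03, 11.20 and 10.96 in amygdala, with the amygdala arrays above the others. The amygdala exceeded the hippocampus 1.22-fold (log2 difference 0.29, 95% interval 0.12 to 0.46, adjusted p = 0.028), a call lost without any of 4 arrays, Ctrl amygdala 1 or 2 or Ctrl hippocampus 1 or 2. Against the cortex the difference was 0.19 (0.02 to 0.36, adjusted p = 0.139). With DZP the arrays read 10.90, 10.97 and 10.92 in cortex, 10.99, 10.81 and 10.93 in hippocampus and 10.98, 11.16 and 11.20 in amygdala, and the differences from Ctrl were 0.06, 0.14 and 0.05 (adjusted p = 0.94, 0.554 and 0.881). Of 25 *Ftl1* probe sets, 8 were called higher in Ctrl amygdala than in hippocampus (background 3.81%). Both ferritin genes have many processed pseudogenes, and probes shared with them cannot be assigned to 1 locus. Of the 25 *Ftl1* probe sets, 7 carried identifiers of another chromosome and 4 had values identical to another of the 25, so the counts are not of independent measurements.

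The regional count in Ctrl brains thus came to 1 of 10 genes called higher in hippocampus than in cortex, where 15% of all clusters were called, 8.13% higher and 6.89% lower. For amygdala against cortex it was 1 lower, against a background of 15.5% (8.87% higher and 6.65% lower). For amygdala against hippocampus it was 1 higher and 1 lower, against 10.3% (5.77% higher and 4.57% lower). Without regard to a test, 7 of 10 genes did not overlap between Ctrl hippocampus and cortex (33% of all clusters), 7 between amygdala and cortex (30.6%) and 3 between amygdala and hippocampus (27.1%). The median difference of the 10 genes was -0.11, -0.07 and -0.06 in these 3 comparisons, beside 0.035, 0.033 and -0.004 over all clusters.

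**Figure D4:**
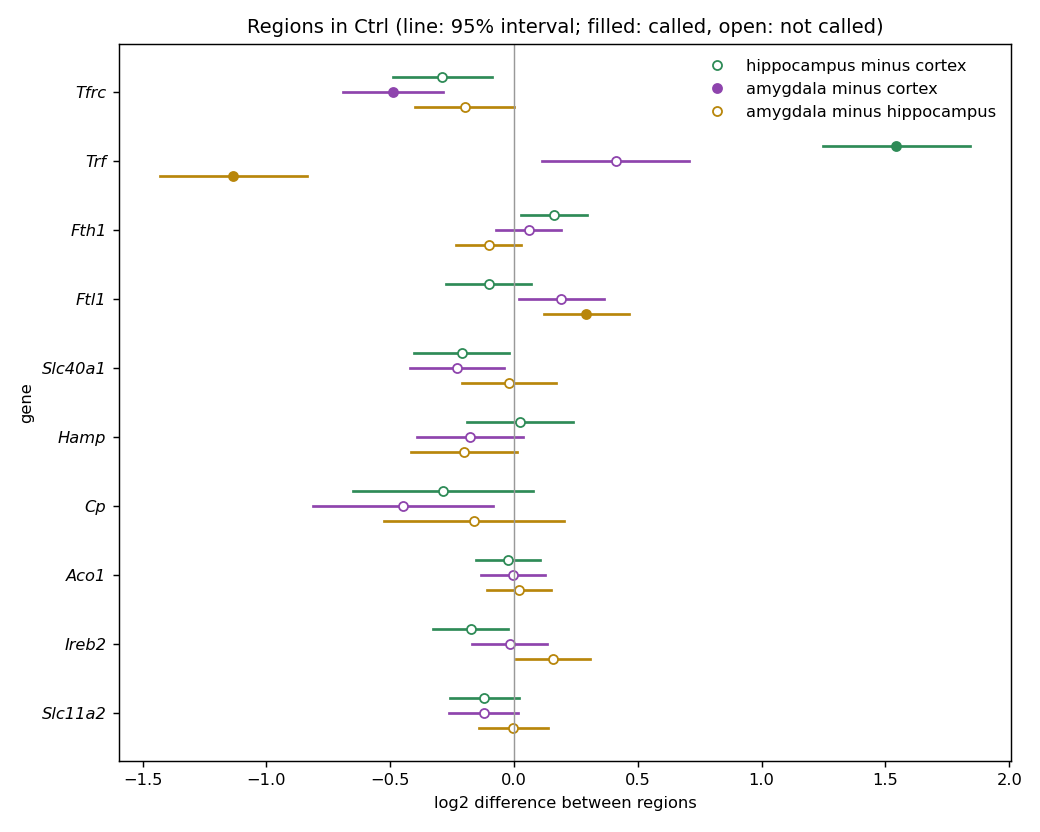
Log2 difference between regions of Ctrl brains for the 10 genes, with points for the limma estimate from 3 arrays against 3, lines for the 95% interval and filled points for called differences. *Trf* is filled for hippocampus minus cortex (1.54) and amygdala minus hippocampus (-1.13), *Tfrc* for amygdala minus cortex (-0.49) and *Ftl1* for amygdala minus hippocampus (0.29).

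*Cp*, ceruloplasmin, the copper ferroxidase that helps load exported iron onto transferrin, had the largest differences between treatments in cortex and hippocampus, none of them called. In the cortex its Ctrl arrays read 7.62, 7.82 and 7.55 and its DZP arrays 7.65, 8.14 and 8.31. In the hippocampus they read 7.30, 7.52 and 7.31 in Ctrl and 7.93, 7.84 and 7.77 in DZP. In the amygdala they read 7.08, 7.50 and 7.06 in Ctrl and 7.03, 7.38 and 7.65 in DZP. The hippocampal groups did not overlap, 1 of 3 DZP arrays of the cortex lay within the Ctrl range, and the amygdala groups overlapped widely. The difference was 0.47 in hippocampus (1.38-fold, 95% interval 0.11 to 0.83, unadjusted p = 0.0147, adjusted p = 0.3 in limma), 0.37 in cortex (1.29-fold, 0.01 to 0.73, 0.0459 and 0.628) and 0.14 in amygdala (1.10-fold, -0.23 to 0.50, 0.435 and 0.838). Without the first DZP cortex array the cortical difference was 0.56 (adjusted p = 0.316). Without the third it was 0.23 (adjusted p = 0.968).

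Averaged over the 3 regions for each treatment and replicate number, 0 of 10 genes were called, where 0% of all clusters were, and 1 of 10, *Cp*, had an unadjusted p below 0.05 (background 9.73%). Its average difference was 0.33 (0.05 to 0.60, adjusted p = 0.437 in limma). The labels do not tie replicate numbers to mice, so the spread and overlap of these averages rest on a grouping that may not follow mice. The average taken within the fit of the 6 groups, which uses the spread between arrays rather than between averages, also called 0 of 10 genes (background 0.0788%). There 3 of 10 had an unadjusted p below 0.05 (background 11.3%), with limma differences of 0.33 for *Cp* (0.12 to 0.54, adjusted p = 0.214), -0.11 for *Ireb2* (adjusted p = 0.331) and -0.12 for *Tfrc* (adjusted p = 0.437). In the averages over regions, *Ftl1* (0.08) was higher and *Hamp* (-0.10) and *Ireb2* (-0.11) lower with DZP without overlap of the averages, 3 of 10 genes where 15.7% of clusters did not overlap (8.27% higher and 7.42% lower).

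Most *Cp* probe sets leaned the same way at the exon level without passing the test. Of 75 *Cp* probe sets, 62 had the higher mean in DZP in cortex, 63 in hippocampus and 47 in amygdala, and the median differences were 0.45, 0.51 and 0.14. Over the 46 probe sets at or above the median level of the table, the counts were 43, 44 and 33. None was called, and 13, 23 and 3 had an unadjusted p below 0.05, where 5.77%, 12.1% and 8.25% of all probe sets did. These were 13 higher and 0 lower with DZP in cortex, 21 and 2 in hippocampus and 2 and 1 in amygdala. The median of the 75 probe sets read 7.14, 7.20 and 6.98 on the Ctrl hippocampus arrays and 7.65, 7.53 and 7.61 on the DZP ones, so these groups did not overlap either. Probe sets of a gene share its transcript and its arrays, and their count is not a count of replicates. In the opposite direction, 12 of the 75 had the lower mean in DZP hippocampus, with a lowest difference of -1.89. Another of these 12 read 10.58, 9.91 and 10.31 in Ctrl hippocampus and 7.86, 8.62 and 9.50 in DZP hippocampus (difference -1.61, adjusted p = 0.178). It was singled out after its values were seen. In the cortex the same probe set had the higher mean in DZP (1.08, adjusted p = 0.843).

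Most of the 7 endothelial markers had higher means with DZP, as *Cp* did, while 4 of 6 astrocyte markers had lower means in each region. The summed endothelial signal was higher with DZP without overlap in cortex and hippocampus, as given above, and ran from 11.86 to 12.02 in Ctrl amygdala and from 11.99 to 12.23 in DZP amygdala. Of the 7 markers, 6 had the higher mean in DZP in cortex and 6 in hippocampus (median 0.19 in each), and none was called. The 7 markers of pericytes and fibroblasts had summed signals of 11.45 to 11.54 in Ctrl cortex, 11.37 to 11.42 in DZP cortex, 11.40 to 11.58 in Ctrl hippocampus and 11.47 to 12.25 in DZP hippocampus, and *Kcnj8* and *Col1a1* of that list were below the negative-control mean throughout. The 6 astrocyte markers summed to 16.95 to 17.04 in Ctrl cortex and to 16.85 to 16.88 in DZP cortex, lower without overlap. In hippocampus their sums were 16.82 to 16.95 in Ctrl and 16.83 to 16.96 in DZP. *Gja1* of that list was below the negative-control mean throughout. The part of vascular or astrocyte RNA in the *Cp* values was not tested. The genes most like *Cp* over the 18 arrays were *Ifitm2* (r = 0.944), *Osmr* (0.931) and *Igfbp7* (0.911).

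The start of *Cp*, the gene with the largest DZP difference, is shown for its TATA box. The stretch holds the 250 bases before the downstream of 2 RefSeq starts, on the plus strand of GRCm38.p6, with matches to TATAAA on either strand in capitals. The plus-strand match begins 25 bases before the start and overlaps a match on the other strand.
Cp, chr3:19956999-19957248: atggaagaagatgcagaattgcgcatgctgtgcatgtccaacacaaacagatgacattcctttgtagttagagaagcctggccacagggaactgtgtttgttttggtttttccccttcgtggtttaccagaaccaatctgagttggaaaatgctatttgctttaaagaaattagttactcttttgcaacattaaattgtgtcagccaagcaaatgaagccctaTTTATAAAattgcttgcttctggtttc
TATAAA was found on either strand in 12.4% of the 32851 windows and in 2 of the 10 windows of the iron genes, the other being the upstream start of *Fth1*.

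**Figure D5:**
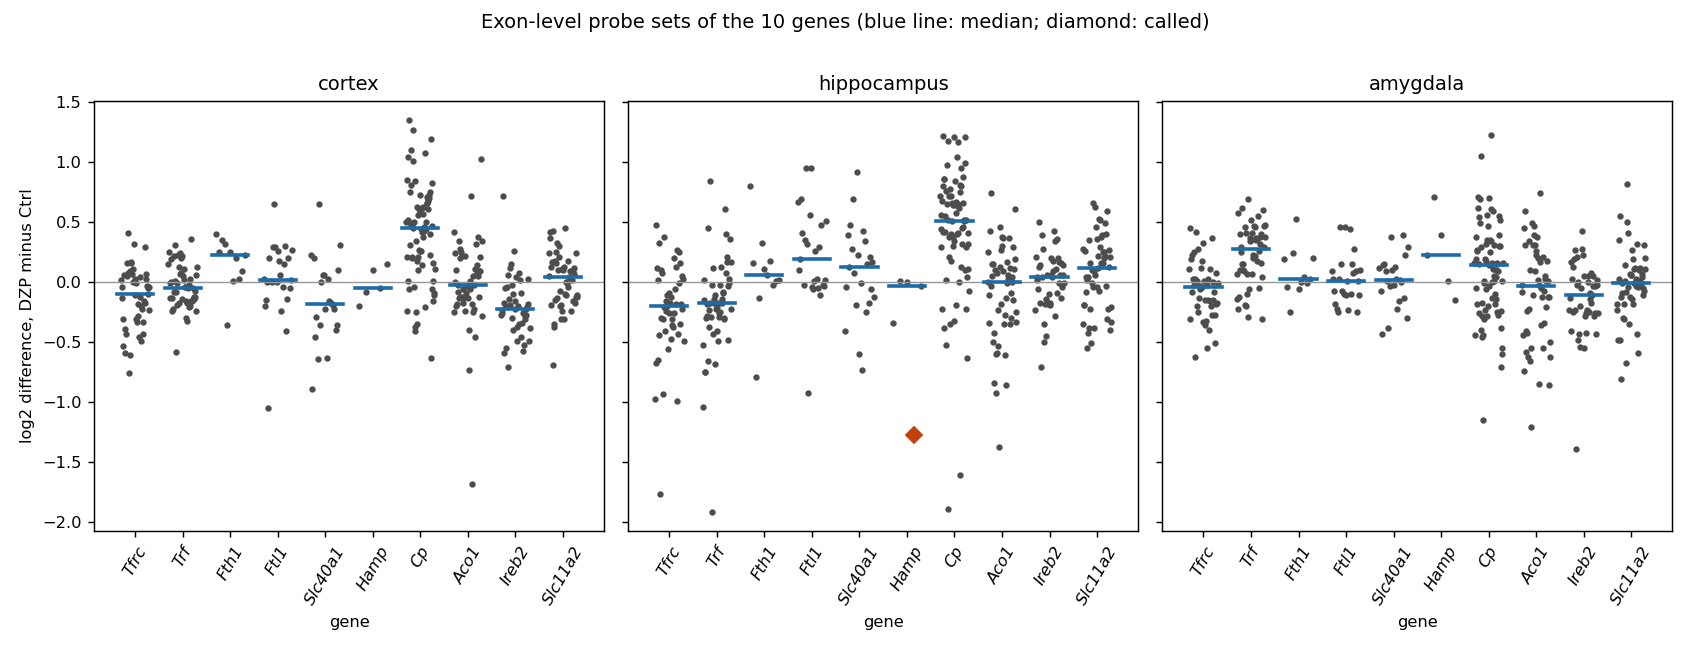
Log2 difference, DZP minus Ctrl, of the 388 exon and junction probe sets of the 10 genes in each region, with each point a probe set, blue lines the median of a gene and the diamond the called probe set. The *Cp* points lie mostly above 0 in cortex (median 0.45) and hippocampus (0.51), and the diamond is a *Hamp* probe set at -1.27 in hippocampus.

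*Slc40a1*, ferroportin, the known exporter of cellular iron, and *Hamp*, hepcidin, the peptide that triggers its degradation, had dim gene-level values. Of their exon-level values, those of 5 of 23 *Slc40a1* probe sets (highest mean 14.90) and 2 of 5 *Hamp* probe sets (highest mean 11.21) lay above the negative-control mean on all arrays. *Slc40a1* ranged from 6.22 to 6.60, and its differences between treatments were -0.07, 0.06 and 0.08 in cortex, hippocampus and amygdala (adjusted p = 0.934, 0.852 and 0.798). Its Ctrl cortex arrays (6.53, 6.54 and 6.60) lay above those of Ctrl hippocampus (6.43, 6.22 and 6.39) and Ctrl amygdala (6.37, 6.23 and 6.39), by differences that were not called (adjusted p = 0.141 and 0.101). At the exon level 4 of 23 probe sets were called lower in amygdala than in cortex (background 5.44%).

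*Hamp* read 6.53, 6.41 and 6.47 in Ctrl hippocampus and 6.26, 5.92 and 6.27 in DZP hippocampus, without overlap. The difference was -0.32 (95% interval -0.54 to -0.11, unadjusted p = 0.00621, adjusted p = 0.227 in limma), and without the second DZP array it was -0.21 (adjusted p = 0.535). In cortex and amygdala the differences were 0.02 (-0.20 to 0.23) and 0.01 (-0.21 to 0.22). The difference of the DZP effect between hippocampus and cortex was -0.34 (adjusted p = 0.498) and that between amygdala and hippocampus 0.33 (adjusted p = 0.512). Over all 10 genes, 0 were called in these 3 comparisons of effects, where 0.00455% (hippocampus against cortex), 0% (amygdala against cortex) and 0.0121% (amygdala against hippocampus) of clusters were, and 2, 0 and 2 genes had an unadjusted p below 0.05 where 8.96%, 7.39% and 9.31% of clusters did.

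The *Hamp* difference in hippocampus sat in 1 of its 5 probe sets. That probe set, the only one called among the members' 388 between DZP and Ctrl in hippocampus (background 0.0533%), read 11.01, 10.44 and 10.97 in Ctrl and 9.46, 9.18 and 9.97 in DZP (difference -1.27, adjusted p = 0.0487). It read 10.84, 10.78 and 10.74 in Ctrl cortex and 10.61, 10.80 and 10.81 in DZP cortex, but 9.42, 9.18 and 9.83 in Ctrl amygdala and 9.45, 9.46 and 9.55 in DZP amygdala. The DZP hippocampus arrays thus stood at the level of the amygdala arrays, and the other groups about 1 unit higher. Whether this probe set read *Hamp*, *Hamp2* or an effect of single arrays was not tested. In Ctrl it was called lower in amygdala than in cortex (-1.31, adjusted p = 0.000562) and than in hippocampus (-1.33, adjusted p = 0.000744). The other bright *Hamp* probe set, at means of 11.08 in Ctrl hippocampus and 11.06 in DZP hippocampus, differed by -0.03 there (adjusted p = 0.964) and was called higher in Ctrl amygdala than in cortex (0.50, adjusted p = 0.0412). The other 3 probe sets were at means of 2.88 to 5.46 in all groups. No member probe set was called in cortex, where 0% of probe sets were, or in amygdala, where 0.000278% were.

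*Hamp2*, the near-identical second hepcidin gene of the mouse, read 8.72, 8.55 and 8.71 in Ctrl hippocampus and 8.30, 8.23 and 8.51 in DZP hippocampus (difference -0.31, adjusted p = 0.441), also without overlap. Probes may not separate the 2 genes, and they are not independent measurements. The start of *Hamp* is shown for the STAT motif through which interleukin-6 is known to raise hepcidin in liver. The stretch holds the 250 bases before the RefSeq start, written along the minus strand of GRCm38.p6, with the palindrome TTCNNNGAA in capitals, 97 to 89 bases before the start.
Hamp, chr7:30944030-30944279: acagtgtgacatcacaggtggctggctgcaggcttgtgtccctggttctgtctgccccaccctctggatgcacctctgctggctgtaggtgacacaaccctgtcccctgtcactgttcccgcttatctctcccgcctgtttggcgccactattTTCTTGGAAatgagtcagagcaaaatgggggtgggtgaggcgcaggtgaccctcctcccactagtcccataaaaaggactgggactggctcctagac
TTCNNNGAA was found on either strand in 7.02% of the 32851 windows and in 1 of the 10 windows of the iron genes. Of the 10 genes, 7 matched the promoter table.

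The iron sensors *Aco1* and *Ireb2* encode the iron regulatory proteins, the first of which is a cytosolic aconitase when it holds an iron-sulphur cluster, while the other is degraded when iron is ample. *Aco1* ranged from 8.09 to 8.24 over the 18 arrays, the smallest range of the 10 genes. Its differences were 0.01, 0.04 and -0.02 between treatments, with 95% intervals all within -0.15 and 0.17, and no difference between regions was called. For the genes other than *Trf*, *Tfrc* and *Cp*, the highest correlation with a named gene over the 18 arrays was 0.913 for *Fth1* (*Kdm4b*), 0.920 for *Ftl1* (*Gabbr1*), 0.799 for *Slc40a1* (*Bank1*), 0.860 for *Hamp* (*Ptger4*), 0.753 for *Aco1* (*Eef2*), 0.848 for *Ireb2* (*Tmem260*) and 0.875 for *Slc11a2* (*Sh2b3*).

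*Ireb2* read 10.36, 10.56 and 10.51 in Ctrl cortex and 10.23, 10.28 and 10.18 in DZP cortex, without overlap. The difference was -0.24 (1.18-fold lower, 95% interval -0.39 to -0.09, unadjusted p = 0.00352, adjusted p = 0.377 in limma). In the amygdala the arrays read 10.41, 10.52 and 10.44 in Ctrl and 10.30, 10.31 and 10.39 in DZP, again without overlap (-0.12, -0.27 to 0.03, adjusted p = 0.609). In the hippocampus they read 10.31, 10.35 and 10.24 in Ctrl and 10.40, 10.25 and 10.40 in DZP and overlapped (0.05, -0.10 to 0.20, adjusted p = 0.867). The effect in hippocampus exceeded that in cortex by 0.29 (0.08 to 0.51, unadjusted p = 0.0106, adjusted p = 0.384). At the exon level 36 of 45 *Ireb2* probe sets had the lower mean with DZP in cortex (median -0.22). None was called, and 8 had an unadjusted limma p below 0.05 (background 5.77%). In Ctrl 2 of 45 were called lower in hippocampus than in cortex and 1 higher in amygdala than in hippocampus. These shares were below the background (4.96% and 3.81%).

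In hippocampus against cortex, 48 of the members' 388 probe sets were called higher and 9 lower, beside 4.07% and 4.96% of all probe sets. For amygdala against cortex 7 were higher and 29 lower, beside 5.13% and 5.44%. For amygdala against hippocampus 9 were higher and 44 lower, beside 3.81% and 3.28%. *Trf* gave 40, 3 and 38 of the calls in these comparisons. In signal relative to the gene-level value, 0 of 388 were called between DZP and Ctrl in any region, where 0%, 0.0304% and 0% of probe sets were in cortex, hippocampus and amygdala, and 30, 62 and 30 had an unadjusted p below 0.05 (5.86%, 12.8% and 7.99%). Between regions 13, 5 and 9 of 388 were called in the same order of comparisons, shares near or below the background (2.78%, 3.37% and 2.03%). Besides the *Trf* probe sets, these included a *Fth1* junction at 15.20, 15.02 and 15.50 in Ctrl cortex and 16.54, 16.61 and 16.14 in Ctrl hippocampus, 1.18 higher where the gene differed by 0.16. They also included a *Tfrc* junction at 11.77, 11.50 and 11.36 in Ctrl cortex and 10.48, 10.65 and 10.50 in Ctrl hippocampus, 1.00 lower where the gene differed by -0.29. Another *Tfrc* probe set, at a mean of 5.73, ran the other way, 0.80 higher in hippocampus relative to the gene. A *Cp* probe set at a mean of 9.25 was 2.18 higher in hippocampus than in cortex relative to its gene.

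Of 63 other measured iron genes, 0 were called between DZP and Ctrl in any region, and 3, 5 and 5 had an unadjusted p below 0.05 in cortex, hippocampus and amygdala, beside 7.83%, 11.2% and 9.4% of all clusters. Their median differences were 0.01 in cortex, 0.05 in hippocampus and -0.04 in amygdala, beside 0.00, -0.01 and 0.03 over all clusters, and 8, 11 and 13 did not overlap between treatments, beside 14.6%, 16.1% and 13.1% of all clusters. In the cortex the largest of these were *Ncoa4*, the receptor that delivers ferritin to lysosomes (-0.20, adjusted p = 0.534), *Tfr2*, the second transferrin receptor (0.11, adjusted p = 0.754), and *Neo1*, a partner of hemojuvelin (-0.10, adjusted p = 0.8). *Ncoa4* read 9.35, 9.40 and 9.43 in Ctrl cortex and 9.17, 9.28 and 9.12 in DZP cortex. In the hippocampus they were *Hamp2*, given above, *Lrp1*, a receptor of the heme carrier hemopexin (0.24, adjusted p = 0.275), and *Smad1*, which relays bone morphogenetic protein signals to the hepcidin gene (0.20, adjusted p = 0.481). In the amygdala they were the metalloreductases *Steap4* (0.24, adjusted p = 0.512) and *Steap3* (0.20, adjusted p = 0.433) and the ligand *Bmp2* (-0.20, adjusted p = 0.52). *Tfr2*, *Steap3*, *Steap4* and *Bmp2* lay below the negative-control mean on every array.

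As over all clusters, more of these 63 genes were called between regions of Ctrl brains than between treatments. In hippocampus against cortex 5 were called higher and 6 lower, in amygdala against cortex 9 and 6, and in amygdala against hippocampus 6 and 4, beside the 15%, 15.5% and 10.3% of all clusters. Of 17 mitochondrial iron, heme and iron-sulphur genes, *Slc25a37*, the mitochondrial iron importer mitoferrin 1, was lower in hippocampus than in cortex (-0.84, adjusted p = 2.65e-07), and *Cpox*, an enzyme of heme synthesis, was higher (0.65, adjusted p = 0.000535). Of 12 hepcidin regulators, *Neo1* was higher in amygdala than in cortex (0.70, adjusted p = 2.4e-06) and than in hippocampus (0.64, adjusted p = 1.14e-05), and *Smad5* was higher in amygdala than in cortex (0.52, adjusted p = 5.43e-05). Of 10 genes of heme handling, *Lrp1* (-0.49, adjusted p = 0.000413) and *Abcg2*, a porphyrin and drug exporter of capillaries (-0.36, adjusted p = 0.00634), were lower in hippocampus than in cortex. Of 10 genes of import and reduction, *Cybrd1*, a ferric reductase, was higher in hippocampus than in cortex (0.51, adjusted p = 0.00143), and *Steap3*, the reductase of transferrin endosomes, was lower in amygdala than in hippocampus (-0.36, adjusted p = 0.00467). *Heph*, a ferroxidase akin to ceruloplasmin, was higher in amygdala than in cortex (0.28, adjusted p = 0.0038). *Cybrd1*, *Steap3* and *Heph* also lay below the negative-control mean on every array.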

How the data were processed

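Deposited gene-level and exon-level tables held log2 signal intensities that, per the labels, the authors exported from Affymetrix Expression Console 1.4.1; the summarisation and normalization settings and the genome build are not given in the sources used here. Arrays were labelled from 100 ng of total RNA. Controls (6732 gene-level and 6607 exon-level rows) were left out, and probes were named from the platform annotation (30638 clusters with 1 symbol, 2176 with several, 33142 with none; only single-symbol rows were named). A linear model of 6 groups of 3 arrays was fitted to the 18 arrays of each level with limma 3.58.1 in R 4.3.3, with eBayes and Benjamini-Hochberg adjustment over all rows. The number of arrays limits the precision. Relative probe set signal was the exon-level log2 value minus the gene-level log2 value of the same array. Marker sums are the log2 of summed linear signals. Regions were punched from brain slices and can share mice, but the labels do not tie numbers to mice. Deviations of same-numbered arrays correlated at -0.098 to 0.203 between treatments (2 of 9 pairs over 0.1). Between regions they correlated at -0.155 to 0.417 (6 of 18 over 0.1). The consensus correlation was 0.007 in a random block, so the numbers were not used as pairs. In the averages over the 3 regions, the numbers did set which arrays were averaged together. The fits were tested on simulated data. All 10 members were named, with the 3 genes most correlated with each discussed member, other iron genes called or, failing that, the 3 largest DZP differences without overlap in each region, and a selection of the 4 largest regional calls of each list. The members and lists were chosen with earlier results of these data known. Some listed genes are not reported here. Promoter sequences are from RefSeq on GRCm38.p6. Scaling, filters, weights, variance models, blocks and left-out arrays were varied. Figures were drawn with matplotlib.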

Additional observations from a re-analysis of the deposited data

How the results depend on the processing

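Between DZP and Ctrl, 0 of the 10 genes were called under every alternative run, in each region and in the average. In the differences between regions 0 were called with centring, array weights and a random block, the alternatives run there. Regional counts moved as follows. For hippocampus against cortex the count rose from 1 to 2, by the addition of *Tfrc*, with each array centred on its median, with only clusters at or above the median level, with array weights, with an intensity trend and robust fit, with a replicate block and with a random block, and was 1 to 2 with single arrays left out (*Tfrc* added without Ctrl hippocampus 1). For amygdala against cortex it rose from 1 to 2 with centring, quantile normalization and the replicate block (*Slc40a1*), to 2 with the filter (*Trf*) and to 3 with array weights (*Trf* and *Cp*), and was 1 to 2 with single arrays left out (*Cp* added without Ctrl amygdala 2, *Trf* without Ctrl amygdala 3). For amygdala against hippocampus it fell from 2 to 1, *Ftl1* being lost, with centring and with only the groups compared, and was 1 to 2 with single arrays left out. *Trf* between hippocampus and the other regions and *Tfrc* between amygdala and cortex stayed called under every alternative run. At the exon level the filter on probe sets at or above the median level raised the DZP calls from 1 to 3, adding 2 *Ftl1* probe sets of identical values, both 0.95 higher in DZP hippocampus (adjusted p = 0.0488). Quantile normalization turned the *Fth1* difference of amygdala against cortex, which was not called, from 0.06 to -0.045. The replicate numbers were not taken as pairs, and the replicate block changed no other call among the 10 genes. The cause of these moves was not tested. Each gene had 1 cluster, so averaging clusters gave the same values and was not run apart. The gene-level values of *Hamp* and *Slc40a1* are limited by signals below the negative-control mean, and a left-out array leaves a group of 2 that is assumed to vary like the others.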
